A study of Mus musculus with 12 samples.

Results

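The 88 small nucleolar RNA (snoRNA) genes of this table were taken by symbol, as every row whose name was Snord or Snora followed by a number, out of 5764 genes. They comprised 60 C/D box genes (Snord) and 28 H/ACA box genes (Snora). The study compared 6 SENS libraries with 6 NEO libraries of RNA bound to tagged ribosomes from arcuate-enriched hypothalamus of POMCRiboTag mice, a genotype that all 12 libraries share. SENS mice had chow in a wire mesh that they could see and smell but not eat, and NEO mice had a wooden nonedible object in such a mesh. All had fasted for 16 h, were habituated for 1 h and met the object for 10 min around zeitgeber time 6 h. The labels give neither age nor sex, do not say how the tag is driven, and do not tie libraries to single mice. The p-values therefore rest on the scatter among libraries alone, part or all of which may be technical. No input library was among the 12, so RNA carried along with the ribosomes cannot be told apart from RNA bound by them.

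snoRNAs are short nucleolar RNAs that guide the chemical modification of ribosomal RNA by base pairing. C/D box snoRNAs direct 2′-O-methylation with the methyltransferase fibrillarin, and H/ACA box snoRNAs direct pseudouridylation with dyskerin. In mammals most of them are processed out of introns of longer host genes, many of which encode ribosomal proteins or other parts of the translation apparatus, and mature snoRNAs mostly carry no poly(A) tail. The cDNA kit named in the labels primes on poly(A), and the use of strand in counting is not given in the sources used here, so reads of a snoRNA gene cannot be told apart from reads of host precursor RNA that covers the same bases.

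The deposited values are CPM (reads scaled to a total of 1000000 per library over the genes of this table), and 1 read was worth between 54.6 and 145 CPM. The table held 8619 to 18299 reads per SENS library and 6901 to 11139 per NEO library. snoRNA genes took 1108.66 of 78624 reads in SENS and 503.92 of 51054 reads in NEO. Fractions of a read occurred in 8 members (Snora70, Snora65, Snora41, Snora33, Snora81, Snora75, Snord66 and Snord1c), whose values are uncertain because reads may have been split among matching places. The 5 markers of POMC neurons listed for a check of the labelled cell type, and the 7 of other neurons and 7 of glia and vessels, have no row in the table and are not analysed here. Of the other marker lists, all 6 pituitary markers and 3 of 5 blood markers had reads.

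The RefSeq annotation of GRCm38.p6 held all 88 members. C/D box genes were 28 to 221 bases long (median 68) and H/ACA box genes 61 to 198 bases (median 121). They lay on 19 chromosomes, with 15 members on chromosome 7 and 12 on chromosome 11. By position, without regard to strand, 86 members lay inside another gene and 2 (Snord89 and Snord118) did not. The 70 containing genes included 17 with 2 or more members. None of these 70 had a row in the table, so the level of the hosts is not analysed here.

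Reads were thinly spread over the members. Of 88, 79 had a value above 0 in at least 1 library, 37 in at least 6 libraries, 8 in at least 10, and 1 in all 12. The other 9 were at 0 in every library (Snord82, Snord70, Snora35, Snord61, Snora20, Snora5c, Snord118, Snord71 and Snord43), which over a whole group allows up to 38.2 CPM in SENS and 58.8 CPM in NEO (3 reads, counting error only). Among these, Snord118 is known in frogs and humans to be needed for maturation of the large subunit ribosomal RNA, and Snora35 lies in the serotonin receptor gene Htr2c. Of the 429 member values above 0, 142 (33.1%) were single reads and 41 were 10 reads or more. The 8 members with the most reads held 35.4% of all snoRNA reads.

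**Figure D1:**
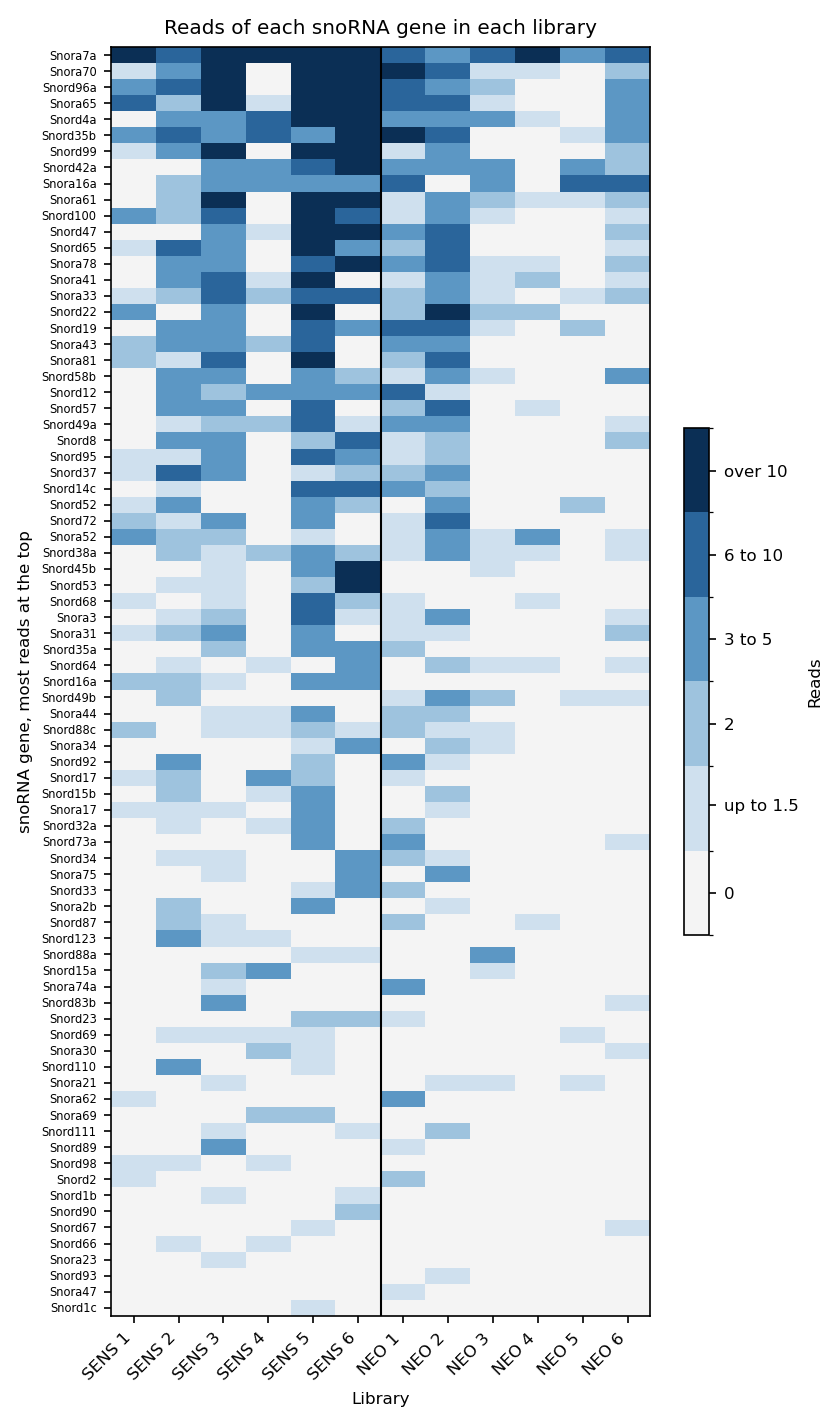
Reads of the 79 detected snoRNA genes (rows, most reads at the top) in each of the 6 SENS and 6 NEO libraries (columns), with colour giving the number of reads. Snora7a in the top row is the 1 member above 0 in all 12 libraries, and filled cells are most frequent in SENS 5, SENS 3 and SENS 2 (58, 53 and 48 members) and in NEO 1 and NEO 2 (51 and 47 members).

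snoRNA genes summed to 7057, 8499, 15894, 6239, 30487 and 14714 CPM in SENS libraries 1 to 6, and to 14528, 16428, 6467, 3932, 4057 and 8651 CPM in NEO libraries 1 to 6. SENS 5 stood highest, and the remaining SENS values lay within the span of NEO. The means were 13815 ± 9104 CPM in SENS and 9011 ± 5336 CPM in NEO (SD, n = 6 each), and the difference of 4804 CPM was smaller than the SD of either group. In bulk RNA such as this, fewer cells and less RNA per cell cannot be told apart. SENS 5 supplied 36.8% of the SENS sum, and NEO 2 and NEO 1 supplied 30.4% and 26.9% of the NEO sum. In SENS 5, snoRNA genes took 3.05% of the reads (exact binomial 95% interval 2.75 to 3.37, counting error only), against 1.64% (1.42 to 1.90) in NEO 2, the next highest library.

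The C/D box genes summed to 3481, 5933, 8097, 3818, 18064 and 10328 CPM in SENS 1 to 6, and to 8697, 10234, 3776, 1015, 1739 and 4132 CPM in NEO 1 to 6. The groups overlapped, and the means were 8287 ± 5448 CPM in SENS and 4932 ± 3736 CPM in NEO (SD, n = 6 each), a ratio of 1.68. The H/ACA box genes summed to 3577, 2566, 7797, 2421, 12423 and 4385 CPM in SENS 1 to 6, and to 5831, 6194, 2692, 2917, 2318 and 4519 CPM in NEO 1 to 6. These groups overlapped too, with means of 5528 ± 3905 CPM in SENS and 4079 ± 1680 CPM in NEO (SD, n = 6 each) and a ratio of 1.36. For both classes SENS 5 had rank 1 of 12 libraries, NEO 2 rank 3 and NEO 1 rank 4. The ranks of the classes differed most in SENS 6 (2 for C/D box and 6 for H/ACA box genes), SENS 2 (6 and 10) and NEO 4 (12 and 8). They differed in other libraries too, such as SENS 3 (5 and 2) and SENS 1 (10 and 7). The ratio of C/D box to H/ACA box CPM was smallest in NEO 4 (0.348, against 2.36 in SENS 6 and 2.31 in SENS 2).

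**Figure D2:**
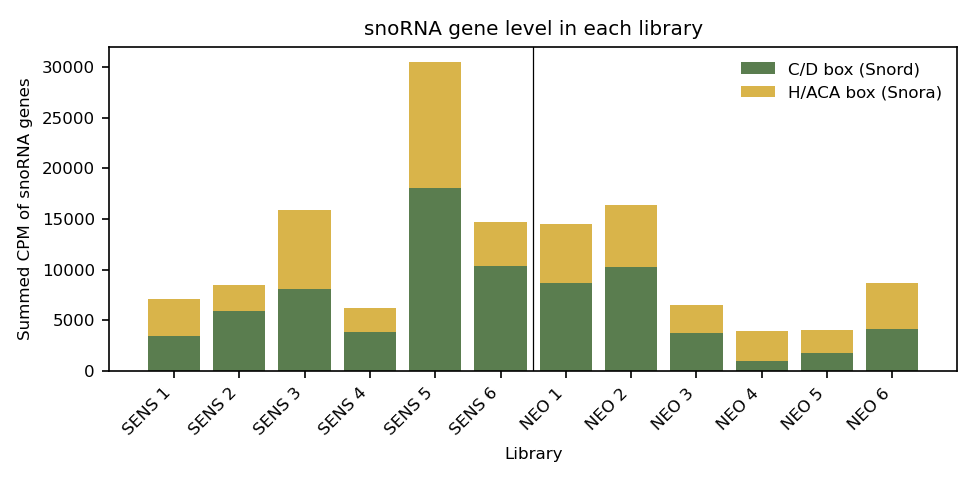
Summed CPM of C/D box (lower part of each bar) and H/ACA box genes (upper part) in each library, SENS left of the line and NEO right of it. SENS 5 reaches 30487 CPM, and the next highest bar is NEO 2 with 16428 CPM.

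Of single libraries, SENS 5 changed the size of the difference most. Without SENS 5, the difference SENS minus NEO over all members fell to 1470 CPM (means 10481 and 9011 CPM), that of C/D box genes to 1399 CPM, and that of H/ACA box genes to 70.6 CPM. For H/ACA box genes, 4149 CPM in SENS then stood against 4079 CPM in NEO. With all 12 libraries but values with fractions of a read set to 0, the H/ACA box difference was 733 CPM (means 4264 CPM in SENS and 3531 CPM in NEO) and the C/D box difference 3343 CPM. Leaving out any other single library gave between 3789 and 6320 CPM for all members, and for H/ACA box genes between 996 (without SENS 3) and 2071 CPM (without SENS 4). With the highest library of each group left out (SENS 5 and NEO 2, an alternative chosen after the values were seen) it was 2953 CPM for all members, 2460 for C/D box and 494 for H/ACA box genes. The labels carry a number for each library, and these numbers were grouped here into 3 ranges by the gaps between them. The difference was 16246 CPM in the range with 2 libraries per group that includes SENS 5. It was 1268 CPM in the range with 3 per group, and −7471 CPM between the single SENS and NEO libraries of the lowest range.

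**Figure D3:**
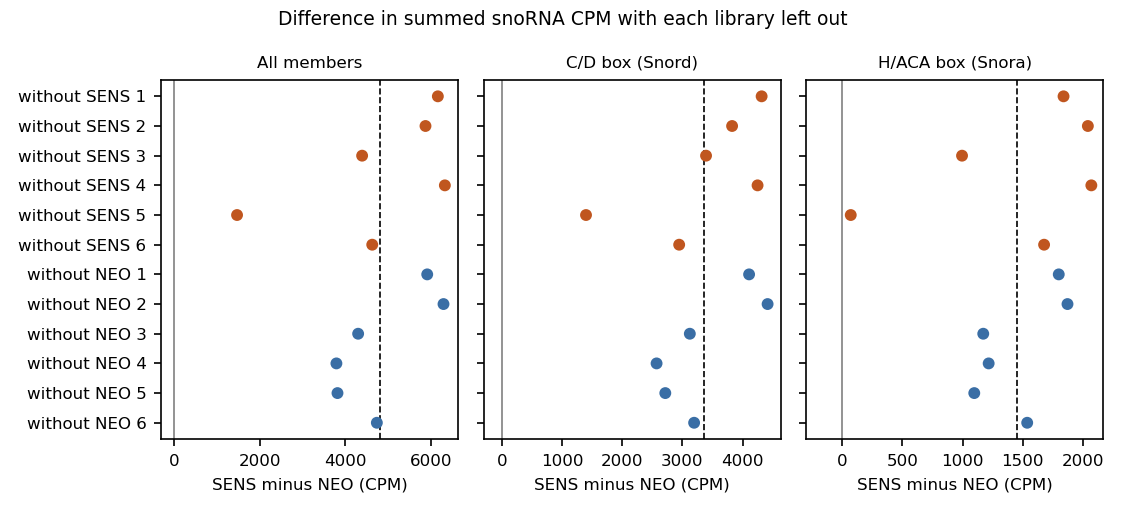
Difference in summed snoRNA CPM, SENS minus NEO, with each of the 12 libraries left out in turn, for all members, C/D box and H/ACA box genes. The dashed line is the difference with all libraries and the grey line is 0, and the point without SENS 5 lies lowest in each panel (1470, 1399 and 70.6 CPM).

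The high sum of SENS 5 was spread over many members, which is another view of the same values. Of the 79 members detected, 29 (36.7%) had their highest CPM in SENS 5, while 8.73% of the 5141 genes tested did. NEO 1 and NEO 2 followed with 10 and 9 members, and SENS 1 had 2 (2.53%), against 12.6% of all genes tested. By reads, 20 of 79 members (25.3%) had over 50% of their reads in 1 library, against 47.7% of all genes tested. Ptprc, which encodes a leukocyte surface phosphatase, had 13, 9, 31, 9, 45 and 0 reads in SENS 1 to 6, and 0, 3, 0, 2, 6 and 11 reads in NEO 1 to 6. It too was highest in SENS 5, and its part in the snoRNA values was not tested. The summed CPM of the 6 pituitary markers was 812, 64.1, 3629, 9796, 532 and 1213 in SENS 1 to 6. In NEO 1 to 6 it was 391, 1077, 2797, 380, 609 and 775, and its part in the snoRNA values was not tested. The erythrocyte markers Hba-a1 and Slc4a1 were at 0 in all 6 SENS libraries and had 1 and 2 reads in NEO.

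More members were seen in SENS libraries, which also held more reads. Members above 0 numbered 26, 48, 53, 26, 58 and 42 in SENS 1 to 6, and 51, 47, 25, 13, 11 and 29 in NEO 1 to 6. The means were 42.2 ± 13.6 in SENS and 29.3 ± 16.8 in NEO (SD, n = 6 each). The number expected when each library is reduced to 6000 reads of this table was 31.9 ± 11.3 in SENS and 25.0 ± 13.5 in NEO. C/D box genes accounted for most of that gap (21.1 ± 7.6 in SENS and 15.1 ± 9.2 in NEO), and H/ACA box genes for 10.8 ± 4.0 in SENS and 9.9 ± 4.4 in NEO (SD, n = 6 each).

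No snoRNA gene passed in the comparison of SENS with NEO. It was fitted by limma over the 5141 genes whose mean reached 1 CPM, on log2(CPM + 1), with a Benjamini-Hochberg adjusted p under 0.05 as the call. All 79 detected members were tested and 0 were called, with 0% called among all genes, and the smallest adjusted p of a member was 0.745. At an unadjusted p under 0.05 there were 2 members, both C/D box genes with higher values in SENS, where 1.83% of all genes were higher and 1.85% lower at that level. In 0 members did the SENS and NEO values not overlap, against 0.0973% of all genes. Log2 fold changes were above 0 for 59 of 79 members (74.7%), against 57% of all genes. They were above 0 for 43 of 54 C/D box genes and 16 of 25 H/ACA box genes. The median was 1.15 over all members, 1.53 over C/D box genes, 0.81 over H/ACA box genes and 0.39 over all genes tested, with a median SE of 2.24 for a single member. With a pseudocount of 100 CPM the medians fell to 0.24 over all members, 0.31 over C/D box genes and 0.19 over H/ACA box genes, against 0.08 over all genes. With a single library left out, the median over all members ranged from 0.85 (without NEO 4) to 1.97 (without NEO 2). The median over all genes tested was then 0.29 and 0.72. Over all members it was 0.90 without NEO 5, 0.96 without NEO 3 and 1.73 without SENS 1, against 0.71, 0.41 and 0.32 over all genes. The median of C/D box genes ranged from 1.06 (without NEO 4 or without NEO 5) to 2.12 (without NEO 1, against 0.64 over all genes). By mean CPM, 58 of 79 members were higher in SENS, against 55.2% of all genes. Without SENS 5, 56 of 78 members were above 0 (71.8%, against 56.4% of all genes). The median of H/ACA box genes was 0.10 without SENS 5 (all genes 0.33), 0.35 without SENS 3 (all genes 0.34) and 0.47 without SENS 4 (all genes 0.41). It was 0.40 without NEO 4 (all genes 0.29), 0.53 without NEO 5 (all genes 0.71) and 1.25 without SENS 1 (all genes 0.32). Without SENS 5 and without NEO 5 it thus lay below the median of all genes. On this scale a library at 0 weighs heavily, and the sign of the fold change was opposite to the difference in mean CPM for 9 of 79 members.

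Snora7a, an H/ACA box gene within the ribosomal protein gene Rpl32 (chromosome 6, 115807975 to 115808103), was the member with the most reads. It had 12, 9, 16, 12, 15 and 11 reads in SENS 1 to 6, and 6, 5, 6, 15, 5 and 10 reads in NEO 1 to 6. All 12 libraries were above 0 and the groups overlapped. Its mean was 1022 ± 347 CPM in SENS and 965 ± 542 CPM in NEO (SD, n = 6 each), with a limma log2 fold change of 0.17 (SE 0.64, adjusted p = 0.965), so its level differed by less than the spread between libraries. It was the leading snoRNA gene in 4 SENS and 3 NEO libraries, in SENS 2 jointly with Snord65 (9 reads each). It made up 48.4% of the snoRNA CPM of NEO 4 but 6.79% of that of SENS 2. Its sign was not stable, at −0.01 without NEO 2.

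The other H/ACA box genes with many reads varied more. Snora70, within Rpl10 on chromosome X, had 1, 4, 14, 0, 24.5 and 15 reads in SENS 1 to 6, and 10.5, 6, 1, 1, 0 and 2 reads in NEO 1 to 6. SENS 5 held 31.0% of its reads, and its mean was 713 ± 767 CPM in SENS and 348 ± 379 CPM in NEO (SD, n = 6 each; limma adjusted p = 0.894). Snora65, within Rpl12 on chromosome 2, had 6.83, 2, 12.5, 1, 17.58 and 11.75 reads in SENS 1 to 6, and 9.17, 9, 1.25, 0, 0 and 3 reads in NEO 1 to 6. It was above 0 in all 6 SENS and 4 NEO libraries, with 676 ± 517 CPM in SENS and 378 ± 395 CPM in NEO (SD, n = 6 each), a log2 fold change of 2.90 (SE 1.65) and a limma adjusted p = 0.745. The log2 fold change was 1.71 without NEO 4 or without NEO 5, both at 0, and 0.88 with a pseudocount of 100 CPM. Snora33, within Rps12, had 309 ± 203 CPM in SENS, where all 6 libraries were above 0, and 190 ± 151 CPM in NEO, where 5 were.

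Among the C/D box genes with many reads, Snord96a, Snord4a and Snord99 had their highest CPM in SENS 5. Snord96a, within Rack1 (the gene of a ribosome-bound scaffold protein, chromosome 11), is one of the C/D box RNAs often used as a loading control in small RNA PCR. It had 4, 6, 11, 0, 20 and 17 reads in SENS 1 to 6, and 6, 5, 2, 0, 0 and 5 reads in NEO 1 to 6. The groups overlapped, and the mean was 711 ± 572 CPM in SENS and 327 ± 283 CPM in NEO (SD, n = 6 each), with a limma log2 fold change of 2.04 (SE 1.90, adjusted p = 0.745). That value was 0.85 without NEO 4 or without NEO 5, 3.63 without SENS 4, and 0.90 with a pseudocount of 100 CPM. Snord99, within the noncoding gene Snhg12, had 1, 4, 11, 0, 14 and 13 reads in SENS 1 to 6, and 1, 5, 0, 0, 0 and 2 reads in NEO 1 to 6. Its mean of 512 ± 457 CPM in SENS stood against 134 ± 184 CPM in NEO (SD, n = 6 each), with a limma adjusted p = 0.745.

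Snord35b was the most even of the abundant C/D box genes in SENS. It had 4, 7, 3, 6, 5 and 11 reads in SENS 1 to 6, and 11, 6, 0, 0, 1 and 3 reads in NEO 1 to 6. NEO 1 was the highest library by CPM (1075) and NEO 3 and NEO 4 were at 0, so the SENS values lay inside the NEO span. The mean was 452 ± 132 CPM in SENS and 358 ± 412 CPM in NEO (SD, n = 6 each), with a limma log2 fold change of 2.94 (SE 1.67, adjusted p = 0.745). It was 1.77 without NEO 3 or without NEO 4, and 0.79 with a pseudocount of 100 CPM.

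Levels of different members were compared as mean CPM per 100 bases of gene. On that scale Snord42a (45 bases) led with 795, followed by Snora7a with 770, Snord96a with 674, Snord4a with 631 and Snord99 with 577. Snora70, with rank 2 by reads, had rank 13 with 411. For genes this short the value depends on how reads longer or shorter than the gene were counted, which is not given in the sources used here.

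The 2 members with the smallest unadjusted p had no reads in NEO. Snord16a, within Rpl4 (chromosome 9, 64175432 to 64175522), had 2, 2, 1, 0, 3 and 4 reads in SENS 1 to 6 and 0 in all 6 NEO libraries. It was thus above 0 in 5 of 6 SENS libraries, at 151 ± 99.9 CPM in SENS (SD, n = 6). Its pooled SENS level was at least 2.60-fold higher than the NEO limit of 3 reads over the group, and 2.26-fold without SENS 6. Snord53, within the nucleolar protein gene Wdr43 (chromosome 17, 71640889 to 71640956), had 0, 1, 1, 0, 2 and 13 reads in SENS 1 to 6 and 0 in all 6 NEO libraries. SENS 6 held 76.5% of its reads, and its pooled SENS level was at least 3.68-fold higher than the NEO limit but 1.13-fold without SENS 6. These ratios leave out the error of the SENS reads. Neither gene passed (limma adjusted p = 0.745 for both, and 0.330 to 0.791 for Snord16a over the alternatives).

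In all, 11 of 79 members had 0 reads in NEO (22.7% of all genes tested did) and 2 had 0 reads in SENS (10.3% of all genes). Snord123, within the noncoding gene Snhg18, had 0, 4, 1, 1, 0 and 0 reads in SENS 1 to 6 and none in NEO. Its pooled SENS level was at least 1.30-fold higher than the NEO limit, and below that limit without SENS 2. Snord98, within Ccar1, had 3 single reads in SENS. Snord110, within the gene of the C/D box core protein Nop56, and Snora69, within Rpl39, had 4 reads each in SENS, a pooled level below the NEO limit. Snora47 and Snord93 had 1 read each, both in NEO.

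The log2 fold change was below 0 in 20 of 79 members, of which 0 passed. Snord49b, within the noncoding gene 2410006H16Rik (chromosome 11, 62603086 to 62603148), had 0, 2, 0, 0, 0 and 0 reads in SENS 1 to 6, and 1, 5, 2, 0, 1 and 1 reads in NEO 1 to 6. It was above 0 in 1 SENS and 5 NEO libraries, with 21.4 ± 52.4 CPM in SENS and 183 ± 158 CPM in NEO (SD, n = 6 each), with a limma log2 fold change of −5.13 (SE 2.69, adjusted p = 0.745) that was −1.11 with a pseudocount of 100 CPM. Snora21, within Rpl23, had 1 read in SENS and 3 in NEO. Snora61, within Snhg12, had a log2 fold change of −1.61 but a higher mean CPM in SENS (411 ± 419 CPM in SENS and 211 ± 103 CPM in NEO; SD, n = 6 each), and it was at 0 in SENS 1 and SENS 4 but above 0 in all 6 NEO libraries. Its log2 fold change was 0.19 with a pseudocount of 100 CPM.

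Snord42a and Snord4a lie in 1 host gene, Rpl23a on chromosome 11. Snord42a had 0, 0, 4, 3, 7 and 13 reads in SENS 1 to 6, and 3, 5, 5, 0, 5 and 2 reads in NEO 1 to 6, with 312 ± 292 CPM in SENS and 404 ± 279 CPM in NEO (SD, n = 6 each). Snord4a had 0, 3, 5, 10, 12 and 18 reads in SENS 1 to 6, and 4, 4, 4, 1, 0 and 3 reads in NEO 1 to 6, with 580 ± 445 CPM in SENS and 304 ± 203 CPM in NEO (SD, n = 6 each). The mean difference was negative for Snord42a and positive for Snord4a, and neither passed (limma adjusted p = 0.794 for Snord42a and 0.902 for Snord4a).

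**Figure D4:**
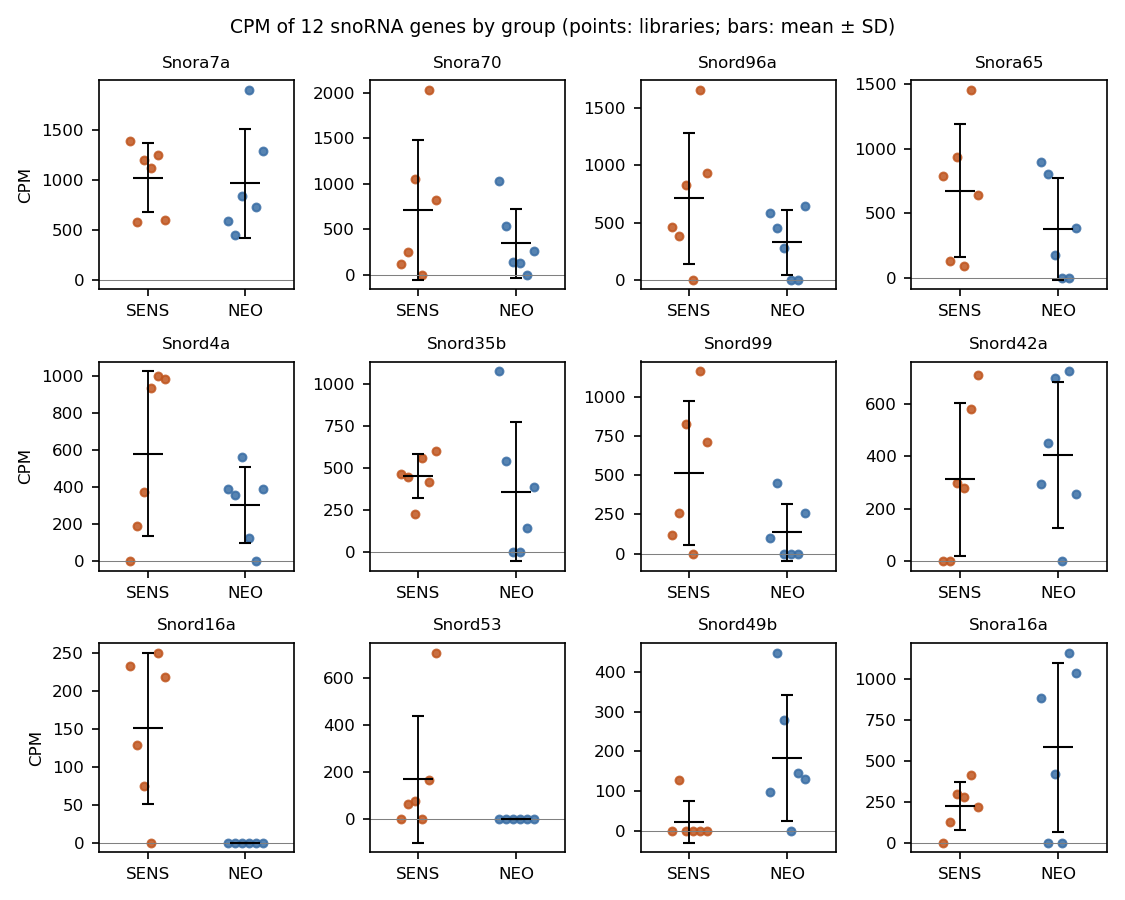
CPM of 12 snoRNA genes in the 6 SENS libraries (left in each panel) and the 6 NEO libraries (right), with the mean and SD as black bars and a separate vertical axis per gene. The groups overlap in every panel: in the Snord16a and Snord53 panels all NEO points lie at 0, where 1 and 2 SENS points lie too.

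In some other hosts members also differed in direction, and in others they did not. Mean CPM was higher in SENS for each member in Rack1, in Rps12 and in Snhg7. The noncoding host Snhg12 holds Snora16a, Snora44, Snora61 and Snord99. Snora16a had 0, 2, 4, 3, 5 and 4 reads in SENS 1 to 6, and 9, 0, 3, 0, 8 and 8 reads in NEO 1 to 6. Its mean was lower in SENS (224 ± 145 CPM, against 582 ± 516 CPM in NEO; SD, n = 6 each), unlike that of Snord99 from the same host, while its log2 fold change was 0.19. NEO 5, with 8 reads of Snora16a, had 1 of Snora61 and none of Snord99. The host of Snord49b also holds Snord49a and Snord65, and Snord65 had 1, 9, 4, 0, 17 and 3 reads in SENS 1 to 6, and 2, 6, 0, 0, 0 and 1 reads in NEO 1 to 6. Snord65 had a higher mean in SENS (428 ± 521 CPM, against 144 ± 210 CPM in NEO; SD, n = 6 each), opposite to Snord49b, and Snord49a had 173 ± 211 CPM in SENS and 161 ± 207 CPM in NEO. The differences between members of 1 host were not tested.

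The 4 C/D box genes Snord32a, Snord33, Snord34 and Snord35a share Rpl13a on chromosome 7, of which Snord32a, Snord33 and Snord35a are known in mouse cells as mediators of lipotoxic stress. Together the 4 summed to 308 ± 314 CPM in SENS and 145 ± 314 CPM in NEO (SD, n = 6 each). All NEO reads lay in NEO 1, with 2 of each gene, and in NEO 2, with 1 of Snord34. In SENS, Snord33 and Snord35a were highest in SENS 6 by reads (4 and 5), and Snord32a in SENS 5 (4).

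Snord64, the only member from the imprinted Snhg14 cluster of the Prader-Willi region on chromosome 7, had 0, 1, 0, 1, 0 and 5 reads in SENS 1 to 6, and 0, 2, 1, 1, 0 and 1 reads in NEO 1 to 6. Its mean was 71.8 ± 106 CPM in SENS and 95.9 ± 76.7 CPM in NEO (SD, n = 6 each; limma adjusted p = 0.868). Snord22, within the noncoding host Snhg1 and known in frogs to be needed for maturation of the small subunit ribosomal RNA, had 3, 0, 3, 0, 11 and 0 reads in SENS 1 to 6, and 2, 11, 2, 2, 0 and 0 reads in NEO 1 to 6. It was the leading snoRNA gene of NEO 2, and 248 ± 357 CPM in SENS stood against 286 ± 365 CPM in NEO (SD, n = 6 each). Snord38a had 125 ± 86.7 CPM in SENS and 142 ± 118 CPM in NEO (SD, n = 6 each), each with 5 libraries above 0.

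By kind of containing gene, a grouping made after the values were seen, 28 members lay in ribosomal protein genes and summed to 6559 ± 3687 CPM in SENS and 4465 ± 2064 CPM in NEO (SD, n = 6 each). The 20 members in noncoding hosts summed to 3417 ± 2819 CPM in SENS and 2583 ± 1770 CPM in NEO. The 7 in translation factor genes or Rack1 summed to 1801 ± 1589 CPM in SENS and 760 ± 683 CPM in NEO. The 10 in genes of nucleolar proteins (Nop56, Nop58, Nop53, Ncl, Gnl3 and Wdr43) summed to 809 ± 670 CPM in SENS and 583 ± 652 CPM in NEO. The 21 in other genes summed to 1191 ± 731 CPM in SENS and 603 ± 474 CPM in NEO. SENS 5 was the highest library in each of these kinds. Without it the difference SENS minus NEO was 781 CPM for ribosomal protein genes, −234 for noncoding hosts, 462 for translation factor genes or Rack1, 38.9 for nucleolar protein genes and 394 for other genes.

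**Figure D5:**
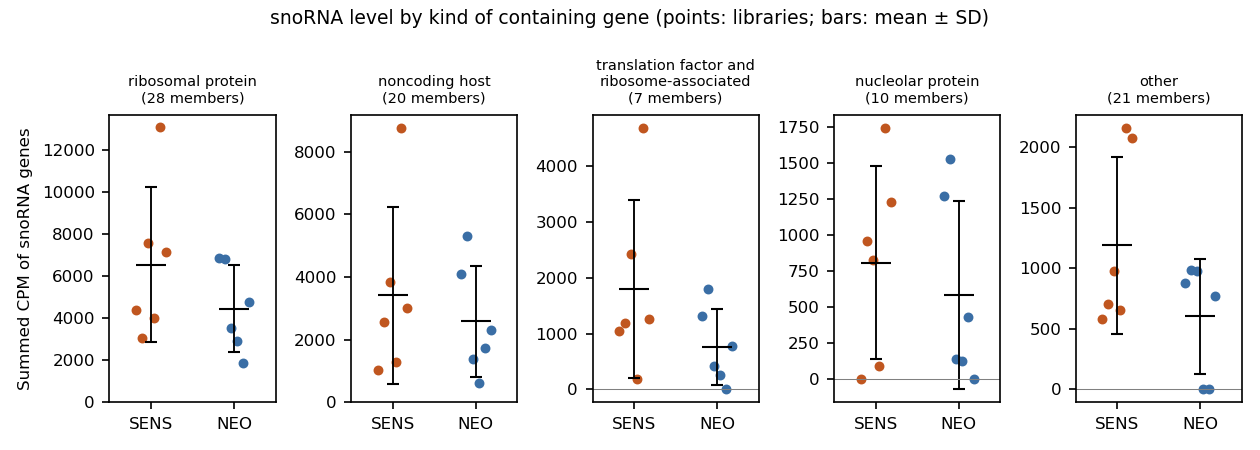
Summed CPM of the snoRNA genes inside each kind of containing gene, for the 6 SENS libraries (left in each panel) and the 6 NEO libraries (right), with mean and SD as black bars and a separate vertical axis per panel. SENS 5 is the highest point in each panel, and the groups overlap in all 5.

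Related genes were sparse. None of the 4 C/D box and 4 H/ACA box core proteins, the 15 listed assembly and processing factors or the listed noncoding hosts had a row in the table, and they are not analysed here. The table held 7 RNAs of Cajal bodies (Scarna genes), of which 5 had log2 fold changes above 0 and 0 passed, with 257 ± 149 CPM in SENS and 238 ± 203 CPM in NEO (SD, n = 6 each). Scarna2 held 22 of their 35 reads (13 in SENS and 9 in NEO). Of 7 other small structured RNAs, 5 had log2 fold changes above 0 and 0 passed, with 807 ± 248 CPM in SENS and 835 ± 741 CPM in NEO (SD, n = 6 each). Rpph1, the RNA of ribonuclease P, held most of these reads (52 in SENS and 34 in NEO), with 2 in SENS 5 and 21 in SENS 6. Terc, the telomerase RNA, which ends in an H/ACA domain, had 4 reads in SENS, all in SENS 5, and 2 in NEO. A further 10 genes typed as snoRNA in RefSeq but named otherwise summed to 232, 1219, 1649, 838, 3073 and 1257 CPM in SENS 1 to 6, and to 1075, 2603, 0, 888, 725 and 129 CPM in NEO 1 to 6. SENS 5 and NEO 2 were again the highest of their groups.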

How the data were processed

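The authors deposited 1 table of CPM values with 12 library columns, all used. Per the submitters' processing notes, the tools were FastQC, HISAT2, featureCounts and edgeR and the builds GRCm38 and mm10, with no roles or versions. How genes were filtered, and whether strand was used, is not given in the sources used here. Deposited CPM columns summed to 999936 to 1000000, so levels are relative to this table. The most frequent value above 0 in a library was taken as 1 read. Since 81.2% of values above 0 were whole reads (tolerance 0.005 reads), no count model was fitted. A 0 was read as up to 3 reads.

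SENS and NEO were compared with limma 3.58.1 in R 4.3.3 (variance trend, two-sided, no covariate) on log2(CPM + 1), over genes whose mean reached 1 CPM, with Benjamini-Hochberg adjustment. The fit was tested on simulated data. Summed CPM got no test. Expected members at 6000 reads used the hypergeometric formula. Members and lists were chosen with earlier results of these data known. Named members are the 8 with the most reads, the 8 above 0 in the most libraries, the 6 per direction with the smallest unadjusted p, imprinted members, each library's leading member, and Snord16a and Snord53. Other members named, such as Snora44, Snord65, Snord110, Snora69 and those of Rpl13a, were chosen after their values were seen. Alternatives were pseudocounts, filters, scaling, the variance model, blocks for the replicate or library number, and leaving out libraries, and for sums also pooled reads, whole-read values alone, medians, library number ranges and leaving out the largest member. snoRNA sequences were not used here. The containing genes of Snord35b and Snord38a are not reported here.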

Additional observations from a re-analysis of the deposited data

Results flagged for a closer look

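In 8 of the 50 sets of 6 values examined, 1 library stood apart from the rest of its group (its gap to the nearest library, as a share of the range, passed Dixon's limit for 6 values). Chance flags about 1 set in 20, and sparse reads with many values at 0 make such gaps common. In SENS, SENS 6 was high for Snord53 (710 CPM, next 166) and Snord64 (273 CPM, next 93.1), SENS 2 for Snord123 (257 CPM, next 93.1) and Snord49b (128 CPM, the rest at 0), and SENS 3 for Snora21 (75.0 CPM, the rest at 0). In NEO, NEO 2 was high for Snord22 (987 CPM, next 280) and Snord93 (89.8 CPM, the rest at 0), and NEO 1 for Snora47 (97.7 CPM, the rest at 0). The values of Snora47, Snord93 and Snora21 are single reads. The summed CPM of SENS 5 did not pass this limit in any class.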

How the results depend on the processing

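In every alternative, limma called 0 genes (smallest adjusted p 0.0939, with 132 to 249 genes at an unadjusted p under 0.05) and 0 of the 22 named members. Members above 0 on the log2 scale numbered 53 (without NEO 5) to 66 (without SENS 1) with a library left out. Without NEO 5 these were 67.1% of members, against 58.3% of all genes, and without SENS 1 83.5%, against 55.9%. At a filter of 100 CPM on the mean, 27 of 36 members tested were above 0 (75%, against 51.2% of all genes). Among them were 18 of 23 C/D box and 9 of 13 H/ACA box genes. Within library numbers 1103 to 1116 the summed difference was 16246 CPM for all members, 11261 for C/D box and 4986 for H/ACA box genes, and within 1046 to 1050, with 1 library per group, it was −7471, −5217 and −2254. With medians of libraries in place of means the difference was 4047 CPM for all members and 3061 for C/D box genes, but 263 for H/ACA box genes. Of 451 alternative values of the named members, 19 turned sign, in 6 members: Snora16a (pseudocount of 100 CPM −0.61, quantile normalization −0.055, without SENS 5 and NEO 2 −1.51, and −1.10 to 1.52 with single libraries left out, negative for 6), Snora61 (0.19 with a pseudocount of 100 CPM), Snora7a (−0.087 without SENS 5 and NEO 2, and −0.013 to 0.40 with single libraries left out, negative without NEO 2), Snora70 (−0.65 to 2.25) and Snord4a (−0.71 to 2.21), both negative without NEO 5, and Snord38a (−1.33 to 1.07, positive without SENS 1, NEO 2, 3, 4 or 6). The cause was not tested. Same-numbered libraries of SENS and NEO also lay in the same library number range, and the labels do not say whether they were handled together. Correlations of their deviations from the group means were −0.03 to 0.08, which cannot decide this with reads so sparse. The replicate block left the summed difference at 4804 CPM by construction (3355 for C/D box and 1450 for H/ACA box genes; SD of the 6 pair differences 12725 for all members, with 4 of 6 positive for all members, 4 for C/D box and 2 for H/ACA box genes), and with the block limma called 0 genes. In every library 1 read was worth 54.6 CPM or more.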
